A study of Mus musculus with 6 samples.

Results

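Integrins and the laminins they bind are the subject here, as read from arrays of the Braf-mutated murine melanoma line 4434. All probe sets annotated to exactly 1 gene whose symbol begins with Itga, with Itgb and a digit, or with Lama, Lamb or Lamc and a digit were taken, together with Nid1, Nid2 and Hspg2. This gave 38 of 18193 genes and 82 of 34945 probe sets, with 16 integrin α chains, 9 integrin β chains, 10 laminin chains, both nidogens and perlecan (Hspg2). Itgb3bp also carries the symbol pattern but encodes a centromere protein and no integrin chain, so it was set aside (change −0.21, limma adjusted p = 0.567). Itga11 and Itgad were not analysed here.

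Laminins, together with type IV collagen, nidogens and perlecan, make up the basement membrane, the sheet of matrix under epithelia and around vessels, nerves and muscle fibres. Each laminin has an α, a β and a γ chain, and cells hold on to it mainly through its α chain. Integrins are the receptors, built of an α and a β chain that reach the cell surface together, so a receptor needs both chains. In melanoma, integrins and laminins are known for their part in adhesion, migration and the crossing of basement membranes.

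Both groups carried the same lentiviral vectors, one with Oct4 (Pou5f1), Klf4, Sox2 and blasticidin resistance under a doxycycline-inducible promoter, the other with the transactivator and mCherry. Cells of the + dox group were kept with doxycycline and, per the methods, selected with blasticidin, while cells of the − dox group were cultured without doxycycline, and RNA of both was taken at day 20. Each group had 3 arrays. Whether these stand for separate cultures is not stated, and a p-value therefore reflects the scatter among these 6 arrays alone, which may be technical. Doxycycline, selection and the vector genes cannot be told apart in this comparison. In RNA of whole cultures, fewer cells of a type and less RNA per cell cannot be told apart either.

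Values are log2 intensities after RMA, the standard background correction, normalisation and summary of Affymetrix arrays, and a change is + dox minus − dox on the log2 scale, where 1 is a doubling. Each gene is given by its probe set with the highest mean, and a gene is said to have risen or fallen where limma gave an adjusted p under 0.05 over all genes. Array + dox 1 stood nearest to the − dox arrays over all genes (first principal component 10.5, against 41.9 and 54.4 in + dox 2 and 3 and −39.6 to −30.7 in − dox arrays), and it was also the + dox array nearest to the − dox mean in 22 of the 38 genes, against 9 for + dox 2 and 7 for + dox 3. Array − dox 1 stood apart from the other − dox arrays on the second component. Of 10 melanocyte markers limma called 0 (0 with an unadjusted p under 0.05). Their summed log2 level was 47.23 to 48.46 with and 47.61 to 48.80 without doxycycline. Mitf had the largest change among them (−0.76, adjusted p = 0.343). It stood at 6.41, 6.83 and 6.17 in + dox and at 8.15, 6.87 and 6.67 in − dox arrays, and the groups overlapped. By qPCR the paper reports lower Mitf and Pmel in the + dox cells of this line. For the loss of differentiation it also cites a western blot of MITF and SOX2 protein, which arrays do not measure. On these arrays Pmel had a change of 0.01. The means of Tyr, Tyrp1 and Mlana were below 3.84 in both groups. This is the lowest of the 6 lower quartiles of the arrays, and genes with means below it are called dim here.

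Of the 38 genes, 4 rose (Lama4, Itgal, Itgb3 and Itgb5) and 2 fell (Lama5 and Itga7). That is 15.8% of them, where 4.87% of all genes tested were called (3.07% higher and 1.80% lower in + dox cells), and 15 had an unadjusted p under 0.05. The groups did not overlap in 18 genes (47.4%), 11 higher and 7 lower, against 26.9% of all genes. The median change was 0.12 (0.01 over all genes), and the median size of change 0.33 (0.16 over all genes). A change of at least 1 in either direction was seen in 10 of the 38 genes, beside 5.14% of all genes.

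**Figure D1:**
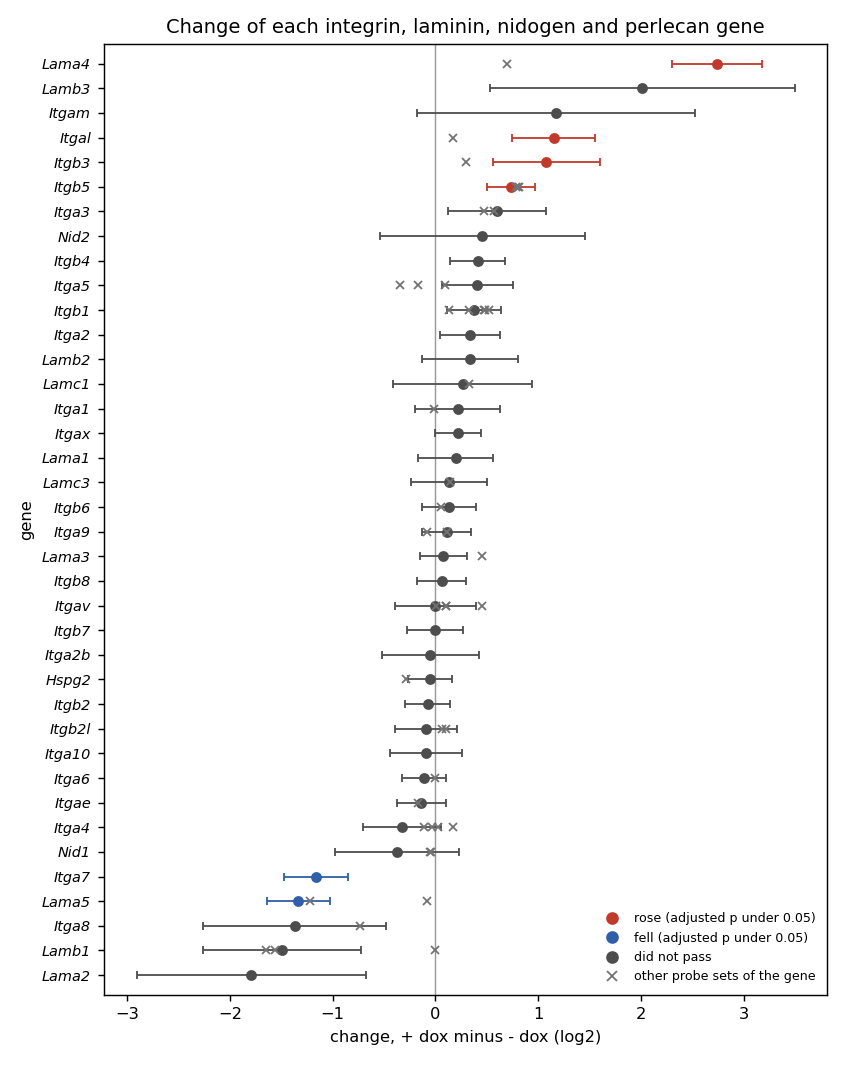
Change of each of the 38 genes (horizontal axis, + dox minus − dox, log2; vertical axis, gene), with the 95% confidence interval of the limma fit as bars. Red circles rose, blue circles fell, grey circles did not pass the test, and crosses are further probe sets of the same gene; Lama4 lies farthest right at 2.74, and Lama2, which did not pass, farthest left at −1.79.

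The laminin α chains past the test moved in opposite directions. Lama4, the α chain of laminins in vessel walls and around muscle and fat cells, was higher in every + dox array, and Lama5, the α chain of most mature epithelial basement membranes, was lower in every one. These were the 2 calls among the 10 laminin chains (20%, beside 4.87% of all genes). Both were made whichever array was left out and in every other setting tried.

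Lama4 stood at 7.66, 7.43 and 7.71 in + dox arrays 1 to 3 and at 5.20, 4.85 and 4.53 in − dox arrays 1 to 3. The lowest + dox array lay 2.23 above the highest − dox array. The change was 2.74 (SE 0.18, 6.68-fold, adjusted p = 0.00127), from 4.86 ± 0.34 to 7.60 ± 0.15 (mean ± SD, n = 3 arrays per group, limma over all genes). The other Lama4 probe set, near the low end of the scale, had 3.99, 3.99 and 3.52 against 3.27, 3.01 and 3.13 and a change of 0.70 (adjusted p = 0.0668 over probe sets), and the mean of both probe sets gave 1.72.

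Lama5 stood at 7.34, 6.93 and 6.99 in + dox and at 8.44, 8.39 and 8.43 in − dox arrays. The − dox arrays lay within 0.05 of each other, and every + dox array was at least 1.05 below them. The change was −1.33 (SE 0.13, adjusted p = 0.00584), from 8.42 ± 0.03 to 7.09 ± 0.22. Of its 2 further probe sets the brighter had −1.22 and the other, dim at 3.10 to 3.27 in all arrays, had −0.09, so the mean of the 3 gave −0.88 (adjusted p = 0.0113).

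The sequence before the start of Lama5 is shown for the chain that fell, with that of Lamb1, its partner chain described next, and that of Itgb5, the integrin chain whose 4 probe sets all rose. These are the 250 bases before the annotated start (RefSeq, build GRCm38.p6), at chr2:180225860-180226109 (− strand), chr12:31265043-31265292 (+ strand) and chr16:33829415-33829664 (+ strand), 5′ to 3′, with the KLF-type letters CACCC, on either strand, in capitals.
Lama5: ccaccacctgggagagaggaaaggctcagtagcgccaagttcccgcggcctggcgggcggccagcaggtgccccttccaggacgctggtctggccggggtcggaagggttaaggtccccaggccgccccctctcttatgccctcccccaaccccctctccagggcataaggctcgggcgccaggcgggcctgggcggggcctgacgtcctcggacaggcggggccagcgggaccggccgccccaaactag
Lamb1: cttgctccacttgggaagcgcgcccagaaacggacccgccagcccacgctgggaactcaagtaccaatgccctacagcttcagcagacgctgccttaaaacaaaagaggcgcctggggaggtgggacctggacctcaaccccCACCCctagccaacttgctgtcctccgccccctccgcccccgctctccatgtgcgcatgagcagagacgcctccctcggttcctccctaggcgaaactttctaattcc
Itgb5: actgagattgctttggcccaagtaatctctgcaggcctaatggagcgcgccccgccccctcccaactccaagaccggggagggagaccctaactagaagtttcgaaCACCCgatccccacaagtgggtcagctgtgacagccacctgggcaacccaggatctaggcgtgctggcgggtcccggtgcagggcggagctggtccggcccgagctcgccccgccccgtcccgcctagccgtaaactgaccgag
The Lama5 stretch held none of these letters, those of Lamb1 and Itgb5 held 1 each, and none of the 3 held TGANTCA (AP-1) or GGAATG (TEAD). Promoter windows of 300 bases, from 250 before to 50 after the start, were in the RefSeq table for 25 of the 38 genes (28 windows), with no entry for Lama4, Itga7, Itgal or Itgb3. CACCC was found in 67.9% of the 28 windows and in 57.5% of all 32851 windows, TGANTCA in 10.7% and 7.81%, GGAATG in 14.3% and 14.7%, ATGCAAA (the first 7 letters of the octamer bound by Oct4) in 3.57% and 4.63%, and the E-box CACGTG in 0 of 28 and 7.15%. Both strands were searched, and no motif in this set contains another. The GC content of the 28 windows ran from 38.3% to 72.7% with a median of 58.8%, beside 52.7% for all windows, and Lama5 was highest. A match is a run of letters and was not tested as a binding site.

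Lama2 and Lamb1 were lower in every + dox array but did not pass the test. Lama2 encodes the α chain of muscle and nerve laminins, and Lamb1 the β chain found in most laminins outside muscle synapses and kidney filters. Both were lowest in + dox 2 and 3, and array + dox 1 lay between these and the − dox arrays. Without + dox 1 both passed.

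Lama2 stood at 7.77, 6.67 and 5.93 in + dox and at 8.91, 8.10 and 8.73 in − dox arrays. Its change was −1.79 (95% interval −2.91 to −0.67, adjusted p = 0.0835). Without + dox 1 it was −2.28 (adjusted p = 0.0143), and with another array left out the adjusted p reached 0.245.

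Lamb1 stood at 10.77, 9.90 and 9.53 in + dox and at 11.84, 11.51 and 11.32 in − dox arrays. Its change was −1.49 (95% interval −2.26 to −0.72, adjusted p = 0.0527), and −1.84 without + dox 1 (adjusted p = 0.00646). With any other array left out it did not pass, with an adjusted p of 0.0763 without − dox 1 and up to 0.180 without + dox 2. With genes in the lowest 20% or 40% by mean left out of the fit, the adjusted p was 0.0489 and 0.0437 for the same values. Of its 3 further probe sets the 2 brighter had −1.65 and −1.56, and the third, at 3.80 to 3.98 with a mean of 3.88 in both groups, had 0.00.

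Lamb3 had the second largest rise in value among the 38 genes and did not pass. It encodes the β chain of the laminin that anchors epidermis through hemidesmosomes. It stood at 6.63, 7.67 and 8.77 in + dox and at 4.72, 6.03 and 6.29 in − dox arrays. The groups were separate by 0.34, less than the SD within either (1.07 and 0.84). The change was 2.01 (95% interval 0.53 to 3.49, adjusted p = 0.123), and the adjusted p was 0.0502 without + dox 1 and up to 0.313 with another array left out. Lama3, the α chain of the same laminin, had 0.08 (interval −0.16 to 0.31) at a mean of 4.19 in − dox cells, and 0.45 on its other probe set.

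The remaining chains had smaller differences, none past the test. Lamc1, the γ chain shared by most laminins, stood at 8.98, 9.99 and 9.52 in + dox and at 9.60, 9.03 and 9.07 in − dox arrays, and the groups overlapped (change 0.26, interval −0.41 to 0.94). Without + dox 1 its change was 0.52, and without both arrays numbered 1 it was 0.70 and passed (adjusted p = 0.0322). Lamb2, the β chain of synaptic and vascular laminins, had 0.33 (interval −0.13 to 0.80). Lama1, the α chain of early embryonic basement membrane, was dim in both groups (0.20), and Lamc3 had 0.13. The linkers of the membrane, Nid1, Nid2 and Hspg2, had −0.37, 0.46 and −0.05, none past the test. The other Hspg2 probe set stood at 7.90, 7.95 and 7.94 against 8.22, 8.17 and 8.27 (change −0.29, adjusted p = 0.126 over probe sets). Nid2 was set apart by a single array, at 7.09 in + dox 1 against 5.45 and 5.60 in + dox 2 and 3 and 5.52 to 5.66 in − dox arrays. Without + dox 1 the change of Nid2 was −0.07 and that of Nid1 −0.09.

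**Figure D2:**
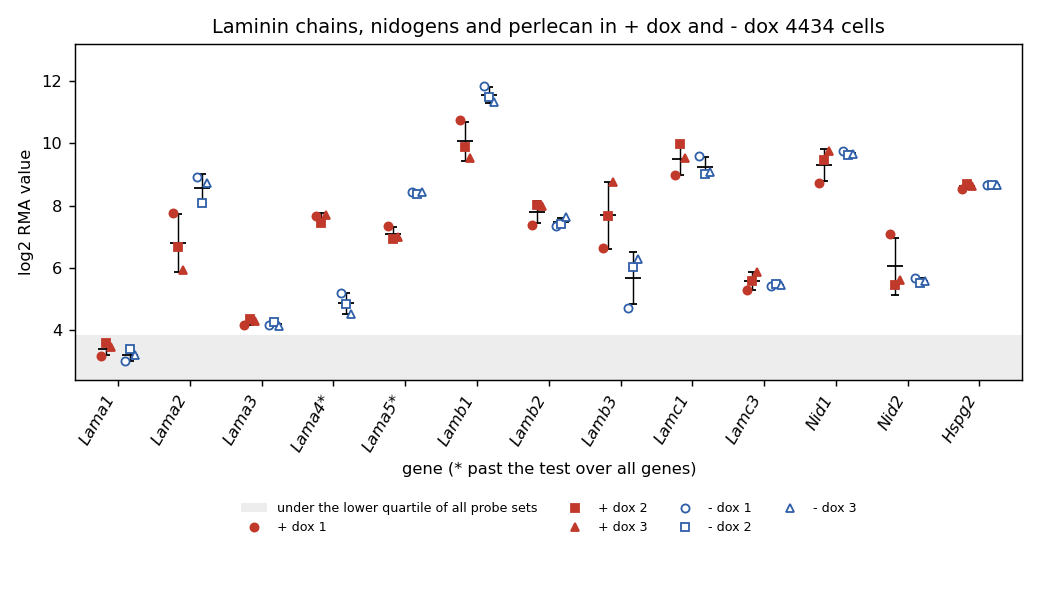
Log2 RMA value (vertical axis) of the laminin chains, nidogens and perlecan (horizontal axis) per array. Red filled marks stand for + dox and blue open marks for − dox, black bars for the mean ± SD of 3 arrays, and grey for the dim range; heights of different genes are not comparable, and Lama4 and Lama5 (starred) are the genes past the test.

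The chains were also read as trimers. All chains were measured for 8 laminins. Lama4, with 2.74, trimerises with Lamb1 (−1.49) or Lamb2 (0.33) and with Lamc1 (0.26). Lama5 (−1.33) and Lama2 (−1.79) share these β and γ chains. No trimer had more than 1 chain past the test.

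Among the 25 integrin chains 3 rose and 1 fell (16%, beside 4.87% of all genes). Itga7, the laminin-binding α chain of muscle, fell, Itgb3 and Itgb5, the β chains that join αv in receptors for vitronectin and other ligands with an RGD motif, rose, and so did Itgal, the α chain of the leukocyte receptor LFA-1. Each of these calls was lost in some of the fits that leave out an array, while the direction of change held in all of them. Counts of calls over all genes also varied widely between these fits, so a lost call need not mean that a result rests on a single array. Integrin chains whose groups did not overlap numbered 13 of 25 (52%, beside 26.9% of all genes), 9 higher and 4 lower.

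Itga7 stood at 8.59, 8.26 and 8.29 in + dox and at 9.51, 9.43 and 9.69 in − dox arrays. Every + dox array was at least 0.84 below every − dox array. The change was −1.16 (SE 0.13, adjusted p = 0.00965), from 9.54 ± 0.13 to 8.38 ± 0.18, on the single probe set of this gene. The adjusted p was 0.0520 without + dox 2, 0.0526 without + dox 3 and 0.0544 without − dox 3, with changes of −1.10, −1.12 and −1.09.

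The other laminin-binding α chains did not pass the test. Itga6, the α chain of the main epithelial laminin receptors, stood at 11.97, 12.08 and 12.09 against 12.19, 12.18 and 12.11 (change −0.11, interval −0.33 to 0.10). Itga3, which binds the laminins of Lama3 and Lama5, had 0.60 (interval 0.12 to 1.07, adjusted p = 0.144), with the same sign on its 2 further probe sets. Itgb1, their common β chain, stood at 11.81, 11.89 and 11.88 in + dox and at 11.66, 11.42 and 11.37 in − dox arrays. Its groups did not overlap and all 6 of its probe sets had a higher + dox mean, with a change of 0.38 (SE 0.11, adjusted p = 0.107) that passed without − dox 1 (0.47, adjusted p = 0.0473). Itgb4, which pairs with Itga6 in hemidesmosomes, stood at 4.74, 4.77 and 4.48 against 4.21, 4.32 and 4.22 (0.41, adjusted p = 0.0910), a small difference at a low level.

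Itgb5 stood at 10.12, 10.34 and 10.31 in + dox and at 9.52, 9.55 and 9.49 in − dox arrays. The groups were separate by 0.57. The change was 0.74 (SE 0.10, 1.67-fold, adjusted p = 0.0158), and its 3 further probe sets had 0.81, 0.78 and 0.80. Leaving out array 2 or 3 of either group ended the call (adjusted p = 0.0751 and 0.0763 for + dox, 0.0673 and 0.0814 for − dox), with changes of 0.70 to 0.75.

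Itgb3 stood at 4.68, 5.0 and 5.38 in + dox and at 3.98, 4.20 and 3.64 in − dox arrays. The − dox arrays were near the dim range, and the groups were separate by 0.48. The change was 1.08 (SE 0.22, adjusted p = 0.0461). The other probe set had 0.30, and the mean of both gave 0.69 (adjusted p = 0.0404). Of the 6 fits that leave out an array, the one without + dox 1 kept the call. The adjusted p was 0.154 and 0.136 when + dox 2 or 3 was left out, and 0.0591, 0.0956 and 0.150 when − dox 1, 2 or 3 was. With the probe sets fitted singly it was 0.0519.

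The α partners of these β chains did not pass. Itgav, which joins Itgb3, Itgb5, Itgb6 and Itgb8, stood at 11.95, 12.45 and 12.25 in + dox and at 12.43, 12.16 and 12.06 in − dox arrays. The groups overlapped and had equal means (change 0.00, interval −0.39 to 0.39). Its 4 further probe sets had higher + dox means, the brightest of them by 0.45 (adjusted p = 0.264 over probe sets), and the mean of all gave 0.13. Itga2b, the platelet α chain that pairs with Itgb3, had −0.05 (interval −0.52 to 0.42). Itgb6 and Itgb8, the β chains known for activating latent TGF-β, were dim in both groups, with 0.13 and 0.06.

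**Figure D3:**
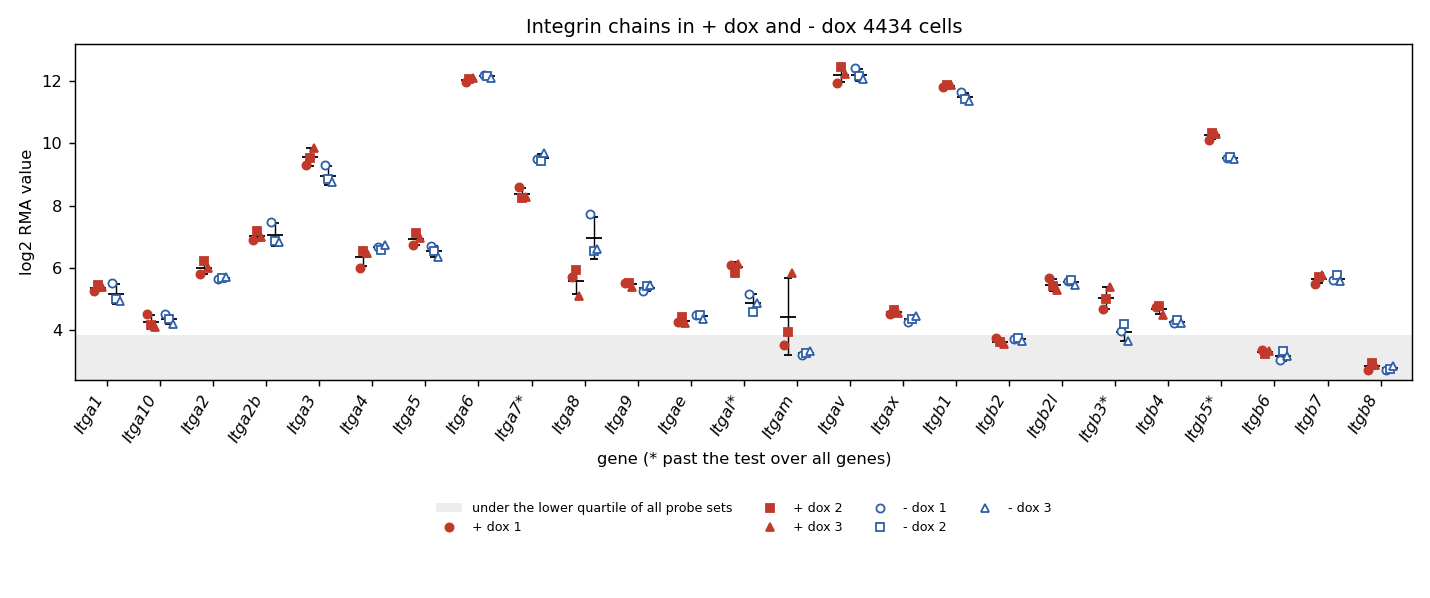
Log2 RMA value (vertical axis) of the integrin chains (horizontal axis) per array, in the same symbols as the plot of laminins. Heights of different genes are not comparable. Starred genes passed the test, and in each of them the groups did not overlap. Itgam is high in + dox 3 alone (5.84), and Itga8 is highest in − dox 1 (7.74).

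Itgal, normally a leukocyte chain, stood at 6.10, 5.83 and 6.11 in + dox and at 5.15, 4.58 and 4.86 in − dox arrays. The groups were separate by 0.68. The change was 1.15 (SE 0.17, adjusted p = 0.0198), and its other probe set had 0.17, so the mean of both gave 0.66 (adjusted p = 0.0373). Here too, leaving out array 2 or 3 of either group ended the call (adjusted p = 0.0664 and 0.0907 for + dox, 0.0646 and 0.0919 for − dox).

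Itgb2, the β chain that LFA-1 and the other leukocyte integrins need at the surface, stood at 3.73, 3.60 and 3.55 against 3.71, 3.74 and 3.66, dim in both groups (change −0.08, interval −0.30 to 0.15). Itgam, the α chain of the myeloid receptor Mac-1, stood at 3.51, 3.95 and 5.84 in + dox and at 3.20, 3.26 and 3.33 in − dox arrays. Its change of 1.17 (adjusted p = 0.301) came mainly from + dox 3. Itgax, the neighbouring gene on the chromosome and the α chain of a dendritic cell integrin, had 0.22. Of 10 leukocyte markers measured limma called 0 (1 with an unadjusted p under 0.05), Ptprc, which all leukocytes carry, lay at 2.78 to 3.08 in all arrays, and their summed log2 level was 52.18 to 52.39 with and 50.83 to 52.03 without doxycycline. Within this sum Cd68 stood at 6.40 to 7.12 in + dox arrays, 7.14 in − dox 1 and 4.91 and 4.82 in − dox 2 and 3. Coro1a, the marker with the unadjusted p under 0.05, was lower in every + dox array. It stood at 4.59, 4.76 and 4.69 against 4.95, 5.32 and 5.50 (change −0.58, adjusted p = 0.0899), and 1 of its 2 further probe sets had the same sign.

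Itga8, the α chain of an RGD receptor of kidney and smooth muscle, was lower in every + dox array and did not pass. It stood at 5.72, 5.94 and 5.10 in + dox and at 7.74, 6.54 and 6.59 in − dox arrays. The change was −1.37 (95% interval −2.26 to −0.48, adjusted p = 0.0924), and −0.73 on the other probe set. Without − dox 1 it was −0.98 (adjusted p = 0.0721), and without both arrays numbered 1 it was −1.04 and passed (adjusted p = 0.0349). The remaining chains, with Itga3, Itgb1, Itgb4 and the others above that neither passed nor changed by 1, gave 19 integrins between −0.33 and 0.60. In this range the collagen receptor chains Itga1, Itga2 and Itga10 had 0.22, 0.34 and −0.09, and the fibronectin receptor chains Itga4 and Itga5 had −0.33 and 0.41. The mean of all probe sets gave −0.06 for Itga4 and 0.00 for Itga5, and the Itga5 probe set of largest variance had the opposite sign (−0.34). The 8 laminins, nidogens and perlecan of this kind lay between −0.37 and 0.46.

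The chains were then set side by side by receptor. Of 24 receptor pairs listed, 22 had both chains measured. In 5 pairs 1 chain passed the test (Itga7 with Itgb1, Itgb3 with Itgav, Itgb3 with Itga2b, Itgb5 with Itgav, and Itgal with Itgb2), and in 0 pairs both did. Itgb1 alone is listed with 12 α chains, whose changes ran from −1.37 (Itga8) to 0.60 (Itga3) among the 11 measured.

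**Figure D4:**
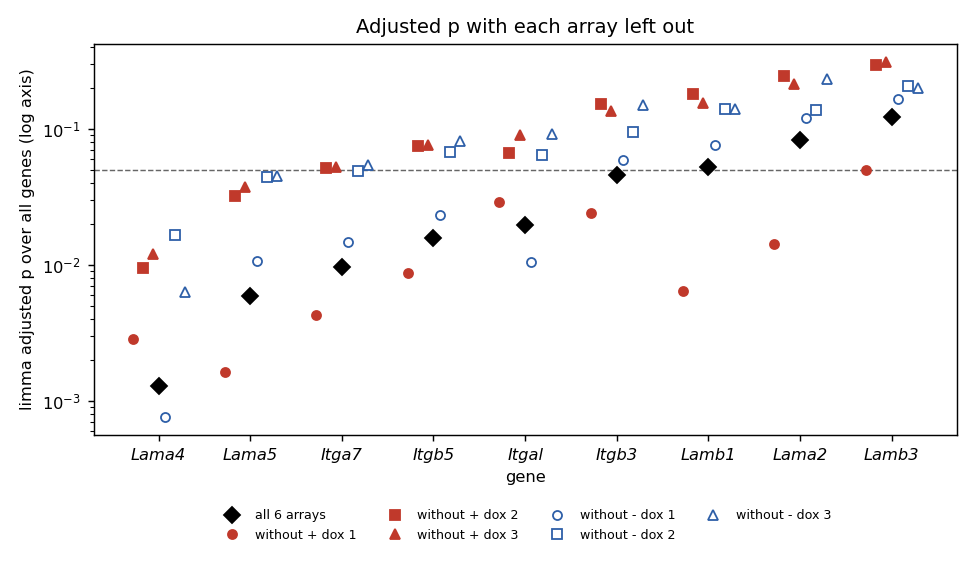
Adjusted p of limma over all genes (vertical axis, log scale) for the 6 genes past the test and 3 further laminin chains (horizontal axis). Black diamonds use all 6 arrays, red symbols leave out 1 + dox array and blue symbols 1 − dox array, and the dashed line is the threshold; Lama4 and Lama5 stay under it throughout (highest 0.0166 and 0.0454), and Lamb1 and Lama2 fall under it without + dox 1.

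Markers of other cells in which these chains are usual were read in the same arrays. Of 8 endothelial markers limma called 0 (1 with an unadjusted p under 0.05). Their summed log2 level was 40.33 to 42.19 in the + dox group against 37.46 to 38.31. The changes of the 8 ran from 0.00 to 1.61, with a median of 0.26. Pecam1, Tie1 and Emcn were dim. Tek was higher in every + dox array, at 7.01, 4.58 and 4.49 against 3.87, 3.80 and 3.58 (change 1.61, adjusted p = 0.219). Eng, the brightest of the 8, stood at 9.23, 9.40 and 10.03 against 8.71, 9.22 and 9.17 (change 0.52, adjusted p = 0.283). Of 8 keratinocyte markers 1 rose, the basal keratin gene Krt14, with 0 falls. Krt14 stood at 7.68 to 8.77 against 4.47 to 4.67 (change 3.67), and 1 of its 2 further probe sets had the same sign. The sum of the 8 was 40.53 to 40.93 against 35.75 to 36.93, a gap that came mainly from Krt14. Krt10 had 0.55 with overlapping groups, and the other markers lay between −0.15 and 0.11. Trp63 was dim. The 6 fibroblast markers had 0 calls (1 with an unadjusted p under 0.05) and sums of 28.11 to 29.01 against 26.65 to 27.76, with Lum and Fap dim. Dcn was higher in every + dox array, at 7.13, 7.55 and 7.68 against 6.36, 6.78 and 6.68 (change 0.85, adjusted p = 0.0525). The 3 platelet markers measured had 0 calls (0 with an unadjusted p under 0.05) and sums of 12.84 to 13.46 against 12.67 to 13.06, with Ppbp dim. The part of such cells in the changes of Lama4, Lamb3 or the integrins was not tested.

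Col4a1 and Col4a2 were lower in every + dox array. Of 21 other basement membrane genes and laminin receptors of other kinds 4 fell and 0 rose (19%, beside 4.87% of all genes). Col4a1 and Col4a2, the chains of the most common type IV collagen, stood at 11.27, 10.83 and 10.95 against 12.18, 12.16 and 12.34 (change −1.21, adjusted p = 0.0102) and at 10.01 to 10.22 against 11 to 11.05 (−0.93, adjusted p = 0.00764). Col18a1, a basement membrane collagen from which endostatin is cut, fell by 1.59, and Ntn1, a guidance protein related to laminins, by 0.81. The median change of the list was −0.08, beside 0.01 over all genes.

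Other integrin ligands moved both ways, with 2 rises and 4 falls among 31 measured (19.4%, beside 4.87% of all genes) and a median change of 0.00. Npnt, nephronectin, the main ligand of the Itga8 receptor, stood at 6.99, 6.80 and 6.01 against 4.69, 3.97 and 4.42 and rose by 2.24 (adjusted p = 0.0158), with the same sign on its 4 further probe sets and 0.99 for the mean of all. L1cam, an adhesion molecule that αv integrins bind, rose by 2.41, or by 1.56 on the mean of its probe sets. Edil3, an RGD ligand of the receptors that hold Itgb3 and Itgb5, stood at 4.49, 4.11 and 3.54 against 7.48, 6.70 and 7.19 and fell by 3.08 (adjusted p = 0.00543), and the mean of its 6 probe sets gave −0.79 (adjusted p = 0.0209). Fn1 (−2.02), Tnc (−1.68) and Tgfb2 (−1.22), the genes of fibronectin, tenascin C and a TGF-β whose latent form αv integrins bind, also fell. Fn1 missed the test when its probe sets were averaged (adjusted p = 0.0721) or when its most variable one was used (0.152).

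Inside the cell, 3 of 31 adaptors and kinases of adhesion sites were called (9.68%, beside 4.87% of all genes). There were 2 rises and 1 fall, the median change was −0.04, and 28 did not pass. Tns1, tensin, which links integrin tails to actin, stood at 8.58, 9.43 and 9.74 against 7.13, 7.20 and 7.45 and rose by 1.99 (SE 0.29). Tln2, the talin of mature adhesions and muscle, stood at 8.21, 8.06 and 7.90 against 8.83, 9.18 and 9.23 and fell by 1.02 (adjusted p = 0.0179), with −0.66 for the mean of its probe sets. Cib1, a calcium-binding protein of the Itga2b tail, rose by 1.03, but its other probe set had the opposite sign and their mean missed the test (0.47, adjusted p = 0.0859). Of 9 hemidesmosome and tetraspanin partners 2 rose and 0 fell (22.2%, beside 4.87% of all genes), with a median change of 0.28. They were the tetraspanins Cd9, at 12.43, 12.61 and 12.52 against 11.59, 11.72 and 11.73 (0.84, adjusted p = 0.0108), and Cd81 (0.67, adjusted p = 0.0316), both of which sit beside integrins in the membrane.

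These lists gave 15 calls among 92 partner genes (16.3%, beside 4.87% of all genes). The lists were chosen with earlier results of these data known, and their shares were not tested against that of all genes. The call of Edil3 was made whichever array was left out. The other 14 were lost without − dox 2 or − dox 3, and 12 of the 15 also without + dox 3 and 11 without + dox 2, with adjusted p values up to 0.142. No partner call was lost without + dox 1 or − dox 1, and Ntn1 missed the test with the mean of its probe sets (−0.42, adjusted p = 0.0880). With the replicate number as a block in limma, the rises of Cd81 and L1cam and the falls of Tln2, Ntn1, Fn1 and Tgfb2 missed the test (adjusted p = 0.0539 to 0.0830).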

How the data were processed

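Total RNA of 3 + dox and 3 − dox samples of 4434 cells was hybridised to Affymetrix mouse arrays, and arrays were grouped by their labels. The deposited values are log2 intensities, which the authors made with RMA in Chipster. Neither the version of Chipster nor its chip definition is given in the sources used here. The log2 scale was read from the range (2.08 to 14.44) and the use of RMA. Column medians were 5.33 to 5.37. The 6 columns were used as deposited, with 0 missing values. Precision is limited by having 3 arrays a group.

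Probe sets were named by GEO's platform annotation and checked through identifiers of the RefSeq table (GRCm38.p6, 34741 of 34945 probe sets matched, 0 symbols changed). Probe sets with several genes (932), with no gene listed (9160) and controls (64) were left out. The contrast of + dox with − dox was fitted by limma (version 3.58.1, under R 4.3.3) through lmFit and eBayes with no covariate. Its two-sided p-values were adjusted by Benjamini-Hochberg over 18193 genes. The fit was tested on simulated data. No filter on low values was applied, and 33 of the 38 genes lay outside the lowest 20% by mean and 22 outside the lowest 40%.

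The genes and lists were chosen with earlier results of these data known. Named were called genes, those changed by at least 1, and chains that complete a receptor or laminin with a called chain. Itga1 to Itga6, Itga10, Itgax, Itgb4, Itgb6, Itgb8, Lama1, Lama3, Lamc3, Nid1, Nid2 and Hspg2 were named beside them, after their values were seen, for their roles. Partner genes named were the called ones. Alternatives were other values per gene, filters on dim genes, eBayes with trend and robust settings, renormalisation, the replicate number as a block, and arrays left out, with the probe set per gene kept.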

Additional observations from a re-analysis of the deposited data

How the results depend on the processing

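Deviations from the group means of same-numbered arrays correlated at −0.12, −0.22 and 0.08, and none of the + dox arrays correlated best with the − dox array of its own number, and the shared numbers are therefore not treated as a pairing. With the replicate block, limma called 205 rises and 98 falls over all genes in place of 558 and 328, 1 rise among integrins in place of 3 (Itgb3 and Itgb5 lost their calls), 2 rises and 2 falls among laminins, nidogens and perlecan in place of 1 and 1 (Lamb3, 2.01, adjusted p = 0.0343, and Lamb1, adjusted p = 0.0460, gained calls), and 5 falls among partner genes in place of 9. With the lowest 40% of genes left out of the fit there was 1 rise among integrins, since Itgal and Itgb3 were not tested, and with the lowest 20% or 40% left out there were 2 falls among laminins, nidogens and perlecan, since fewer genes were tested. Without both arrays numbered 1, integrins had 7 rises and 2 falls, laminins, nidogens and perlecan 4 rises and 3 falls, partner genes 13 rises and 15 falls, and all genes 1876 rises and 1782 falls.

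With each array left out in turn, rises ran from 0 to 3 and falls from 0 to 1 among integrins, rises stood at 1 and falls ran from 1 to 3 among laminins, nidogens and perlecan, rises ran from 0 to 9 and falls from 1 to 11 among partner genes, and rises from 90 to 953 and falls from 24 to 697 over all genes. Among genes outside the 17 named by rule, Itga5, Itga9, Itgb2l, Itgb7, Lamc3 and Nid2 also changed sign in at least 1 setting, none of them called with all arrays. The change of Itga2b (−0.05) ran from −0.16 to 0.165 with an array left out. It was positive without + dox 1 (0.015), without − dox 1 (0.165) and without both (0.23), and the cause was not tested. Over the 17 named genes and all alternatives, 266 values were computed. Of these, 230 were counted as keeping direction and side of the threshold, 19 lost the call, 14 gained it and 3 changed sign. Itgav, with a change of 0.00, had no direction to keep, and its values were counted among the 230. They ran from −0.12 (without + dox 2) to 0.45 (probe set of largest variance), none past the test. Of the 38 genes, 4 had both means under the lower quartile of the arrays (Itgb2, Itgb6, Itgb8 and Lama1), where a difference may not be detectable.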
